A study of Mus musculus with 10 samples.

Results

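Intestinal organoid cultures that had received DMBA and tamoxifen (DMBA+TAM) were compared with cultures that had received DMBA without tamoxifen (DMBA). The comparison used 4 of the 10 RNA-seq libraries of the series, 2 for each treatment, and all 47069 mouse genes of the deposited count table that carry an Ensembl gene ID. Organoids are intestinal epithelial structures grown from crypts in Matrigel, here in a medium with Noggin, epidermal growth factor and R-spondin 1, and all 4 cultures were kept for 50 days. DMBA is a polycyclic aromatic hydrocarbon that acts as a carcinogen after metabolic activation. The strain was C57BL/6, and per the study's methods the mice carried Lgr5-EGFP-CreERT2 together with loxP sites around exons 5 and 6 of both copies of *Ppp2r1a*. Tamoxifen activates this Cre only in cells that transcribe *Lgr5*, the crypt stem cells of the gut, so the design leaves the floxed alleles of DMBA cultures in place and aims at recombination in that cell type in DMBA+TAM cultures, which was not measured here. Both arms share the floxed genotype, DMBA and the medium, and neither is an untreated culture. The other 6 libraries, 2 each of saline control and of tamoxifen without DMBA in a short and a long set, entered the fit behind every adjusted p, where they bear on the filter on low counts, the scaling and the estimate of spread, and their levels are given below as a range. In a fit of the 4 libraries alone 14221 genes were tested and 7189 called. The DMBA libraries are labelled long and the DMBA+TAM libraries carry no such word, and what long refers to is not given in the sources used here. Nothing in the labels says that the 2 libraries of a treatment came from separate animals or cultures, so p-values measure only the spread between libraries of a treatment, pooled over the replicate pairs of all 5 groups of the series.

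The epithelium of the gut is renewed from Lgr5+ stem cells at the crypt base, which give rise to absorptive cells and to secretory goblet, Paneth, enteroendocrine and tuft cells. Beneath it lie fibroblasts that lay down collagen and supply Wnt and BMP signals, smooth muscle, nerves, vessels and immune cells. PP2A is a phosphatase built from a scaffold subunit, a catalytic subunit and an exchangeable regulatory subunit, and *Ppp2r1a* encodes the main form of the scaffold. It removes phosphate from proteins of the PI3K/AKT, ERK and Wnt pathways, which are among the pathways most often altered in intestinal tumors.

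The DMBA libraries held 10020336 and 9159327 counts and the DMBA+TAM libraries 1592366 and 1915270, so the mean of DMBA was 5.47 times higher. Counts were scaled by depth and TMM factors to CPM (normalized CPM), and every pair of values below gives replicate 1 before replicate 2. A level of 3 counts lay at 0.268 and 0.337 normalized CPM in DMBA and at 1.58 and 1.32 in DMBA+TAM. Where a group lay at or under 3 counts per library, the fold is a lower bound set at that level, or a ratio with a 95% interval, which covers counting error only. Log2 fold changes are fitted values, and those of genes near 0 counts in a group depend on the prior count and are no bound. Replicates differed by more than sampling alone, since chi-square divided by its degrees of freedom was 64.6 between the DMBA libraries and 5.06 between the DMBA+TAM libraries. This ratio grows with depth and does not rank the pairs, and Pearson's correlation of log2 levels across genes, which are not independent replicates, was 0.970 within DMBA and 0.962 within DMBA+TAM, the lowest of the 5 groups. A library of each group also held far more transcripts of another tissue than its partner. The 12 genes of a skeletal muscle list summed to 23.8 and 17.4 normalized CPM in DMBA and 9.50 and 9923 in DMBA+TAM, against 8.59 to 19.5 in the 6 libraries of the other groups. Pancreatic enzyme genes, 16 in number and chosen after their values were seen, summed to 108 and 6956 normalized CPM in DMBA and 16.9 and 12.3 in DMBA+TAM, against 33.1 to 94.1 in the other 6. Muscle genes were thus high in DMBA+TAM replicate 2 and pancreatic genes in DMBA replicate 2. With both of these libraries left out, 7131 genes were past the threshold in place of the 8917 given below.

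Both DMBA+TAM libraries held almost no transcript of the markers that define the labelled tissue. *Epcam* (ENSMUSG00000045394, chr17:87635979-87651106), the adhesion molecule that marks epithelial cells, had 1418 and 1607 normalized CPM in DMBA and 1.58 and 1.32 in DMBA+TAM (positions as the deposited table gives them, on GRCm38.p6). In the other 6 libraries it ranged from 1667 to 3085 normalized CPM. In DMBA the epithelial markers were present, but so were those of smooth muscle, with a summed level of 15766 and 9065, and of B and plasma cells, with 3075 and 8529.6, which are no part of an epithelial organoid. The values thus go against the label of intestinal organoid in part in DMBA and in most respects in DMBA+TAM, and the libraries are called by their treatment throughout. In bulk RNA, fewer cells of a type and less RNA per cell cannot be told apart, and this holds for every gene group below.

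The targeted gene, *Ppp2r1a* (ENSMUSG00000007564, chr17:20945311-20965916), had 167 and 153 normalized CPM in DMBA and 129 and 133 in DMBA+TAM. DMBA+TAM was lower in both libraries, with a log2 fold change of -0.29 ± 0.11 (standard error) that did not pass the threshold (adjusted p = 0.0575, edgeR quasi-likelihood test with Benjamini-Hochberg adjustment). Without DMBA replicate 2 it passed the threshold (-0.37, adjusted p = 0.0378). The level covers the whole gene, so reads of the floxed exons 5 and 6 were not separated from the rest, and these values do not measure the deletion.

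Of 16179 genes that passed the filter on low counts, 8917 had an adjusted p under 0.05, which is 55.1% of the genes tested. Among them 4075 rose in DMBA+TAM (25.2%) and 4842 fell (29.9%), so 45.7% of the calls were higher, or 54.8% with scaling by library size alone, which moved the median of all genes by 0.18 on the log2 scale. A change of 1 or more on the log2 scale was reached by 2964 rises and 3263 falls, together 38.5% of the genes tested. Both DMBA+TAM libraries lay above both DMBA libraries for 33.5% of the genes and below them for 42.4%. The genes that rose held 13.4% and 11.7% of the normalized counts in DMBA and 52.5% and 51.6% in DMBA+TAM. The genes that fell held 59.7% and 62.9% in DMBA and 19.1% and 19.5% in DMBA+TAM. With this background of more than 1 gene in 2, the count of called members in a list is given with its direction and with the median log2 ratio of the group means, each mean set to at least 1.45 normalized CPM, the level of 3 counts per library in DMBA+TAM. Over all genes tested this median was 0. A list whose shares of rises and falls lie near 25.2% and 29.9% and whose median lies near 0 does not stand apart from all genes, and its members are described singly.

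**Figure D1:**
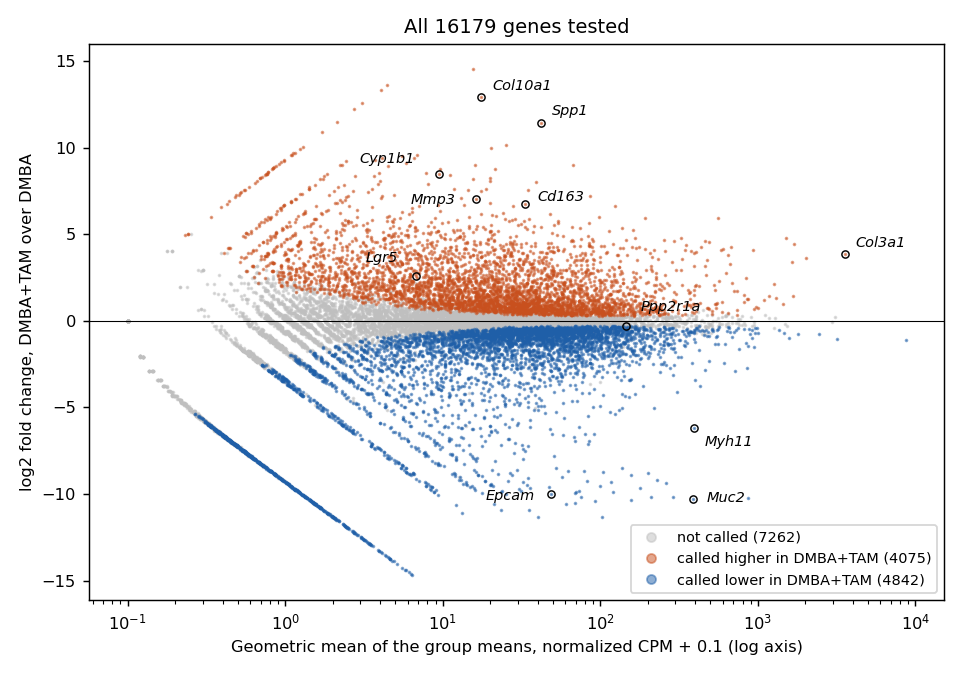
Log2 fold change of DMBA+TAM against DMBA for the 16179 genes tested (vertical axis) by the geometric mean of the group means in normalized CPM (horizontal log axis), with called rises and falls in colour. The 4075 rises and 4842 falls spread over the whole range of levels, with *Col10a1* and *Spp1* high above the line of no change and *Epcam* and *Muc2* far below it, and the slanted rows of points are genes with few or no counts in a group, whose fitted change depends on the prior count.

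The 10 genes with the highest mean FPKM (the authors' unit of fragments per gene length and depth) were different in kind. In DMBA they were *Clca1*, *Muc2*, *Retnlb*, *mt-Co1*, *Mptx1*, *Ang4*, *Spink4*, *Lypd8*, *Lgals4* and *Car1*, which apart from the mitochondrial *mt-Co1* are known from goblet cells, Paneth cells or colonocytes. In DMBA+TAM they were *Col3a1*, *Col1a1*, *Apoe*, *Sparc*, *mt-Co1*, *Tmsb4x*, *Eef1a1*, *Col1a2*, *Actb* and *Lyz2*, which include 3 fibrillar collagen chains, the matrix protein *Sparc*, the macrophage lysozyme *Lyz2* and genes that every cell uses. *Clca1*, a goblet cell secretion, had a mean of 19735 FPKM in DMBA and 19.4 in DMBA+TAM, and *Col3a1* one of 550.3 and 8868. *Actb* and *Eef1a1* did not pass the threshold, with 3277 and 2762 normalized CPM in DMBA and 2798 and 2918 in DMBA+TAM for the actin gene *Actb* and 2823 and 2958 in DMBA and 3410.5 and 3279 in DMBA+TAM for *Eef1a1*, a translation factor. The top 10 genes took 9.60% and 16.0% of the FPKM in DMBA and 7.65% and 7.68% in DMBA+TAM.

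The epithelial genes fell as a group. All 15 genes of a general epithelial list fell, with a median log2 ratio of -8.60, and their summed level was 19941 and 19317 normalized CPM in DMBA and 45.9 and 29.5 in DMBA+TAM. The other 6 libraries ranged from 20250.5 to 30113, a little above DMBA. *Krt8*, a keratin of simple epithelia, had 5656 and 5200.3 normalized CPM in DMBA and 11.6 and 7.49 in DMBA+TAM, a log2 fold change of -9.16 ± 0.25 (adjusted p = 1.34e-08). *Cdh1*, which encodes E-cadherin of adherens junctions, had 706 and 827 normalized CPM in DMBA and 2.64 and 3.97 in DMBA+TAM, a 232-fold difference. *Vil1*, an actin bundler of microvilli, had 826 and 700.4 in DMBA and 0.528 and 0.441 in DMBA+TAM, a ratio of 1604-fold with an interval of 444 to 13245. The groups did not overlap for any of the 15 genes, and the same 15 were past the threshold in each alternative run.

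**Figure D2:**
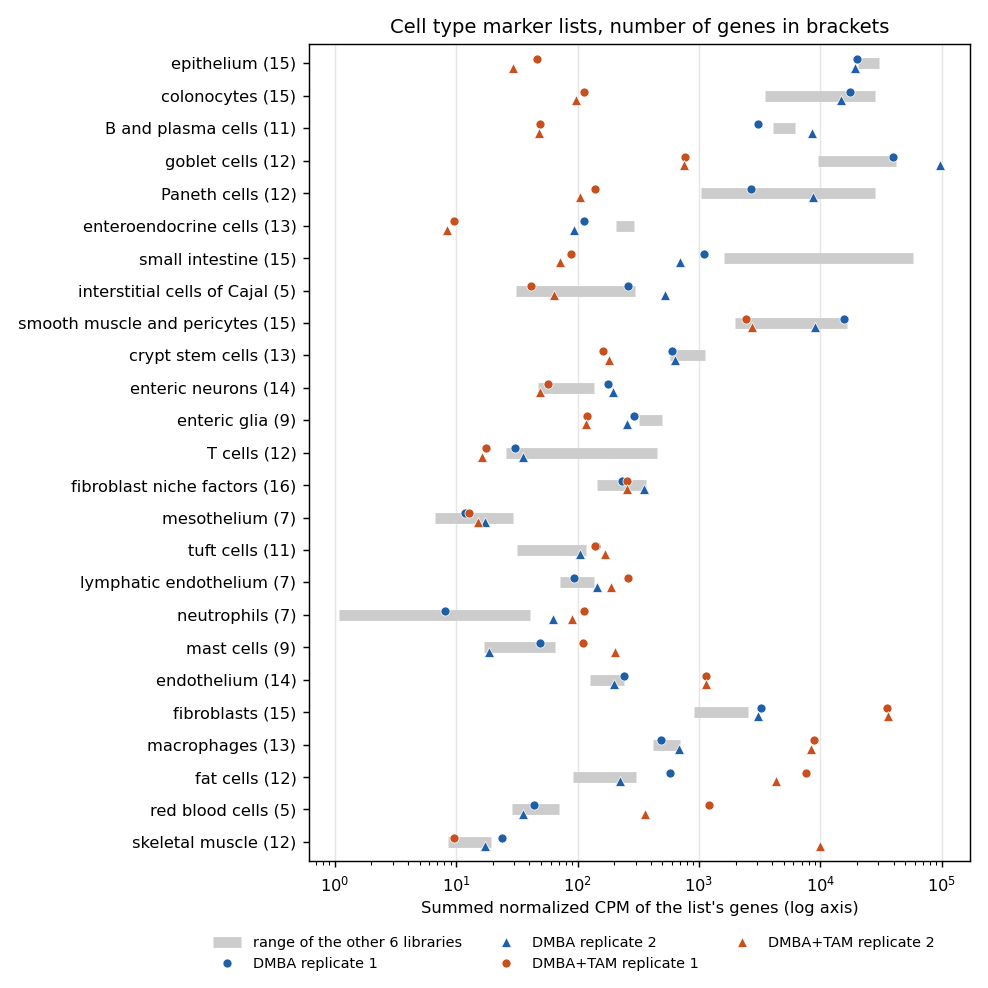
Summed normalized CPM of each cell type marker list (horizontal log axis) in the 2 DMBA and the 2 DMBA+TAM libraries (points), with grey bars for the range of the other 6 libraries and lists ordered by the ratio of the group means. Epithelial, goblet and colonocyte lists lie far lower in DMBA+TAM, macrophage, fibroblast and fat cell lists higher, and the skeletal muscle list is high in a single DMBA+TAM library.

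Genes of goblet cells and colonocytes, the main cell types of the colon epithelium, fell as well. Goblet cells secrete the mucus layer, and 11 of their 12 genes fell, with a median log2 ratio of -9.59. *Muc2* (ENSMUSG00000025515, chr7:141690340-141754693), the mucin that forms the gel, had 13699 and 13123 normalized CPM in DMBA and 13.2 and 8.81 in DMBA+TAM, a log2 fold change of -10.26 ± 0.33. *Fcgbp*, a mucus protein, had 4497 and 14934 normalized CPM in DMBA and 11.6 and 5.29 in DMBA+TAM, and *Agr2*, a disulfide isomerase needed for mucin folding, had 1562 and 2795 in DMBA and 2.11 and 2.64 in DMBA+TAM. The exception was *Ccl6*, a chemokine that myeloid cells also transcribe, at 298 and 546 in DMBA and 686 and 701 in DMBA+TAM, which made up most of the summed level of the list in DMBA+TAM (763 and 752). Its call as higher was lost without DMBA replicate 1 (log2 fold change 0.34, adjusted p = 0.0839), without DMBA+TAM replicate 1 (0.73, adjusted p = 0.0768) and without DMBA+TAM replicate 2 (0.70, adjusted p = 0.0902).

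All 15 colonocyte genes fell (median log2 ratio -7.31). *Slc26a3*, the chloride and bicarbonate exchanger of the colon surface, had 498 and 819 normalized CPM in DMBA and 1.06 and 0.441 in DMBA+TAM. *Ceacam1*, an adhesion molecule of the apical surface, had 4091 and 4177 in DMBA and 12.7 and 6.61 in DMBA+TAM. *Slc9a3*, a sodium and proton exchanger, had 215 and 245 in DMBA and no count in either DMBA+TAM library, at least 158-fold lower. The smallest fall of the list was that of *Slc16a1*, a monocarboxylate carrier that takes up butyrate and is used by many cell types, with 288 and 295 in DMBA and 63.3 and 51.5 in DMBA+TAM (log2 fold change -2.35 ± 0.15).

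Of 15 brush border genes 15 fell (median -6.30), and of 27 junction genes 25 fell (median -5.50). Among the junction genes, *Dsg2*, a cadherin of desmosomes, had 348 and 389 normalized CPM in DMBA and no count in DMBA+TAM, at least 253-fold lower. Its partner *Dsc2* had 224 and 199 in DMBA and also no count in DMBA+TAM. *Jup*, plakoglobin, which other cell types also use, fell less and had 239 and 233 in DMBA and 57.5 and 80.2 in DMBA+TAM (log2 fold change -1.77). *Cldn1* rose, from 0.982 and 1.24 to 5.28 and 5.73, and *Ppl* did not pass the threshold at 8.22 and 8.31 in DMBA and 5.81 and 3.97 in DMBA+TAM. Plectin, encoded by *Plec*, had the smallest fall of the brush border list, from 823 and 666 to 338 and 484.

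Most regulators of epithelial identity also fell. Of 23 transcription factors 21 fell, with a median log2 ratio of -4.56. *Cdx2*, which specifies intestinal epithelium, had 265 and 183 normalized CPM in DMBA and 0.528 and 0 in DMBA+TAM, and its relative *Cdx1* had 296 and 290.0 in DMBA and 0.528 and 0.441 in DMBA+TAM. *Hnf4a*, a nuclear receptor of enterocytes, had 803 and 729 in DMBA and 2.11 and 0.441 in DMBA+TAM. *Ehf*, an ETS factor of epithelia, had 393 and 407 in DMBA and no count in DMBA+TAM, at least 275-fold lower. *Klf4*, which is also transcribed outside the epithelium, fell less, from 653 and 772 to 118 and 95.2. The exceptions, which did not pass the threshold, were *Hes1*, a target of Notch, with 42.3 and 39.4 in DMBA and 47.0 and 29.5 in DMBA+TAM, and *Gata4*, a factor of the proximal gut that was at 2.23 and 0.112 in DMBA and at 0 in DMBA+TAM.

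In all, 51 genes had at least 50 normalized CPM in both DMBA libraries and no count in either DMBA+TAM library, among them *Ehf*, *Dsg2*, *Slc9a3*, *Foxa3* and *Pla2g2a*. The reverse held for 4 genes, the granzymes *Gzme* and *Gzmd*, the T-box factor *Tbx15* and *Gm6900*, and 18 genes with at least 50 normalized CPM in both DMBA+TAM libraries had at most 10 counts in each DMBA library. These levels and example genes were chosen after the values were seen. DMBA was sequenced more deeply, so a count of 0 is reached at a higher level in DMBA+TAM.

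Genes of the rarer epithelial lineages fell in part. Of 12 enteroendocrine genes tested 6 fell (median log2 ratio -0.96), among them *Chgb*, a granin of hormone granules, with 30.4 and 26.7 in DMBA and 2.11 and 0.441 in DMBA+TAM, and the hormone gene *Pyy*, with 16.1 and 23.9 in DMBA and no count in DMBA+TAM. Of 10 Paneth cell genes tested 4 fell (median -0.80). *Ang4*, an antimicrobial ribonuclease, had 2081 and 7751 normalized CPM in DMBA and 3.17 and 0.881 in DMBA+TAM. The high level of replicate 2 in DMBA recurred in other secreted products of this library, such as the pentraxin *Mptx1* with 376 and 13732 and the lectin *Reg4* with 40.3 and 3772. Without both replicates 2 the call of *Mptx1* was lost (log2 fold change -5.48, adjusted p = 0.0511). *Lyz1* was the only Paneth cell gene to rise, from 1.07 and 3.37 to 23.2 and 18.5, and it is a near copy of the macrophage lysozyme *Lyz2*, with which it can share reads. Of 9 tuft cell genes tested 4 fell and 3 rose, with a median of 0, and 2 fell without DMBA replicate 1 or without DMBA+TAM replicate 2. The taste channel *Trpm5* had 16.3 and 13.3 in DMBA and no count in DMBA+TAM. *Dclk1* did not pass the threshold with 28.8 and 27.7 in DMBA and 29.6 and 44.5 in DMBA+TAM.

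**Figure D3:**
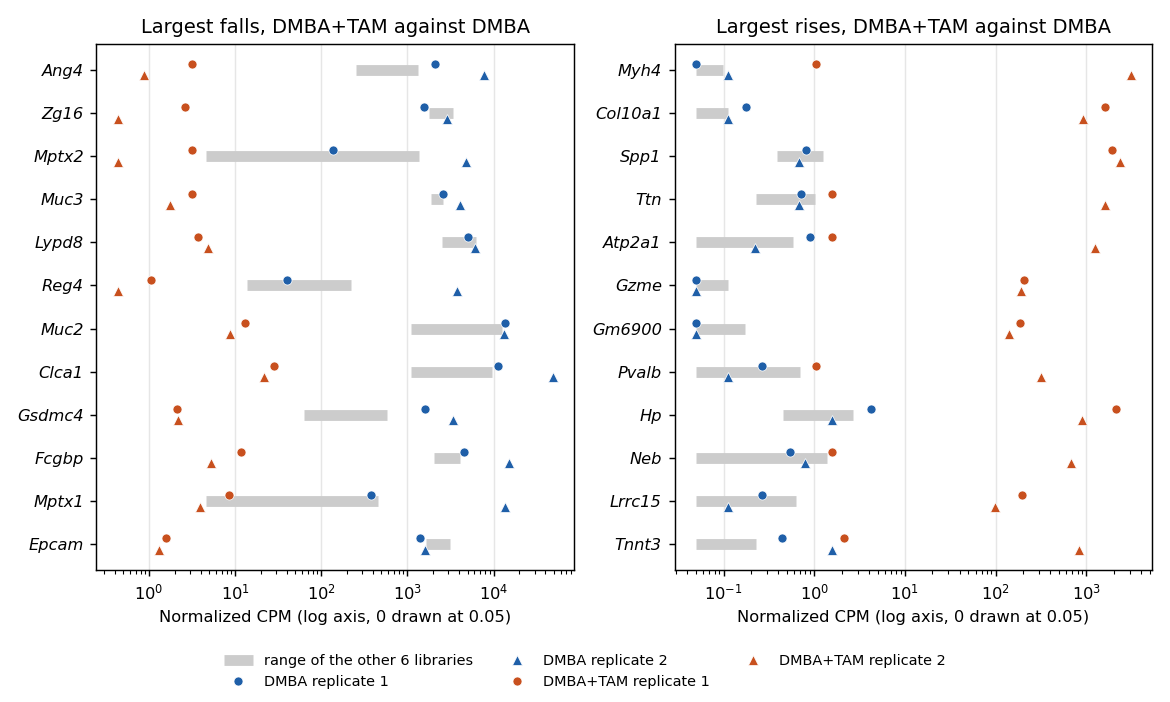
Normalized CPM in each of the 4 libraries (horizontal log axis, a value of 0 drawn at 0.05) for the 12 largest falls and the 12 largest rises, with grey bars for the range of the other 6 libraries. The falls are epithelial and mucus genes at 1607 or more in 1 or both DMBA libraries, and among the rises 6 genes are high in DMBA+TAM replicate 2 alone.

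With the lower group mean set to at least the level of 3 counts per library, which places genes at or near 0 counts further down the order, and with at least 50 normalized CPM in the higher group, the 12 largest falls by ratio of group means were *Ang4*, *Zg16*, *Mptx2*, *Muc3*, *Lypd8*, *Reg4*, *Muc2*, *Clca1*, *Gsdmc4*, *Fcgbp*, *Mptx1* and *Epcam*, all made by the gut epithelium. *Zg16*, a lectin of mucus, had 1568 and 2869 normalized CPM in DMBA and 2.64 and 0.441 in DMBA+TAM, and *Lypd8*, which binds bacterial flagella, had 5118 and 6103 in DMBA and 3.70 and 4.85 in DMBA+TAM. *Mptx2*, a pentraxin, was uneven within DMBA, at 138 and 4839, and also among the other 6 libraries, from 4.57 to 1361. Among the 12 largest rises by the same rule, *Myh4*, *Ttn*, *Atp2a1*, *Pvalb*, *Neb* and *Tnnt3* are genes of skeletal muscle and rested on DMBA+TAM replicate 2, with 1.06 and 3086 for *Myh4* and 1.58 and 1596 for *Ttn*. Without that library *Ttn*, *Atp2a1*, *Pvalb*, *Neb* and *Tnnt3* did not pass the threshold. *Myh4* did not pass the filter on low counts without it and has no such value.

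The other 6 of the largest rises were high in both DMBA+TAM libraries. *Col10a1* (ENSMUSG00000039462, chr10:34389981-34397085), a short-chain collagen known from hypertrophic cartilage, had 0.179 and 0.112 normalized CPM in DMBA and 1618 and 911 in DMBA+TAM, a ratio of 8259-fold with an interval of 2825 to 40063. *Spp1* (ENSMUSG00000029304, chr5:104435118-104441050), which encodes the secreted phosphoprotein osteopontin, had 0.804 and 0.674 normalized CPM in DMBA and 1900.3 and 2358 in DMBA+TAM, a log2 fold change of 11.45 ± 0.23 (adjusted p = 8.34e-09). Both were near 0 in each DMBA library and in the other 6 libraries, which ranged from 0.393 to 1.24 for *Spp1*. *Hp*, haptoglobin, an acute phase protein of liver and fat, rose from 4.20 and 1.57 to 2140.5 and 885. *Lrrc15*, a surface protein known from activated fibroblasts, rose from 0.268 and 0.112 to 197 and 98.2. *Gzme*, a granzyme, had no count in DMBA and 207 and 190.3 in DMBA+TAM, at least 658-fold higher. *Gm6900* had no count in DMBA and 184 and 141 in DMBA+TAM, and as a predicted gene that may share reads with a near copy its level is uncertain.

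Stem cell genes were split. Of 13 crypt stem cell genes 2 rose and 7 fell (median log2 ratio -0.97), and the list summed to 603 and 629.6 normalized CPM in DMBA and 161 and 182 in DMBA+TAM. *Lgr5* (ENSMUSG00000020140, chr10:115450311-115587780), the R-spondin receptor from whose locus the Cre is expressed, had 2.41 and 3.03 normalized CPM in DMBA and 21.1 and 11.5 in DMBA+TAM, a log2 fold change of 2.57 ± 0.40 (adjusted p = 0.000418). *Smoc2*, a secreted matricellular protein, rose from 19.4 and 25.2 to 46.5 and 47.6. Fibroblast markers rose in the same libraries from a sum of 3239 and 3073 to 35156 and 35723 while epithelial markers fell, and the part of stromal cells in both rises was not tested. *Olfm4*, a marker of small intestinal stem cells, was at or under 3 counts in each of the 4 libraries, and the factor *Ascl2* had 1.07 and 1.68 in DMBA and 0.528 and 0.881 in DMBA+TAM. Among the falls, *Sox9* had 76.0 and 79.0 in DMBA and 8.97 and 6.61 in DMBA+TAM (log2 fold change -3.33), the ion carrier *Slc12a2* had 310.3 and 373 in DMBA and 40.1 and 46.3 in DMBA+TAM (-2.98), and *Rnf43*, a ubiquitin ligase that removes Wnt receptors, had 26.4 and 21.3 in DMBA and no count in DMBA+TAM, at least 16.4-fold lower.

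Of genes that Wnt signalling induces 4 of 17 tested were higher and 6 lower, close to the 25.2% and 29.9% of all genes, with a median log2 ratio of -0.15. The list shares 7 genes with the stem cell list. *Cd44*, an adhesion receptor for hyaluronan, rose from 90.6 and 53.9 to 259 and 233. The secreted or membrane inhibitors of Wnt signalling *Wif1* and *Apcdd1* rose, the latter from 3.66 and 2.81 to 29.6 and 23.4. *Nkd1*, another inhibitor induced by the pathway, fell from 20.2 and 15.6 to 3.17 and 5.29. *Axin2* had 18.5 and 13.7 in DMBA and 8.97 and 7.93 in DMBA+TAM and was called lower (log2 fold change -0.94, adjusted p = 0.00674), but not without DMBA+TAM replicate 2 (-0.85, adjusted p = 0.0542). *Myc*, *Ccnd1* and *Ephb3* did not pass the threshold.

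Connective tissue genes rose as a group. Of 15 fibroblast genes 14 rose and none fell, with a median log2 ratio of 3.46, and their summed level was 3239 and 3073 normalized CPM in DMBA and 35156 and 35723 in DMBA+TAM, against 906 to 2513 in the other 6 libraries. *Col3a1* (ENSMUSG00000026043, chr1:45311538-45349706), a fibrillar collagen of soft tissue, had 1002 and 895 normalized CPM in DMBA and 13566 and 13439 in DMBA+TAM, a log2 fold change of 3.83 ± 0.21 (adjusted p = 3e-07). *Thy1*, a surface marker of fibroblasts, rose from 19.3 and 18.2 to 642 and 725, a 36.5-fold change. *Pi16*, a marker of fibroblasts around vessels, rose from 6.25 and 8.54 to 394 and 287. *Pdgfra*, the receptor by which gut fibroblasts are recognised, rose less, from 74.6 and 57.6 to 229 and 205. The member that did not pass the threshold was *Ly6a*, known also from regenerating epithelium, with 720.0 and 849.8 in DMBA and 722 and 695 in DMBA+TAM.

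Of 19 collagen genes tested, 3 of them also in the fibroblast list, 18 rose, with a median log2 ratio of 3.83, and together they went from 3535 and 3014 to 44561 and 44699 normalized CPM. The fibrillar *Col1a1* rose from 291 and 279 to 7554 and 8323, and *Col8a1*, a short-chain collagen of vessels, from 34.0 and 15.2 to 1613 and 1423, the latter a 61.7-fold change. The basement membrane collagens *Col4a1* and *Col4a2* rose by 2.46 and 2.28 on the log2 scale, from 413 and 304 to 1970.0 and 1974 for *Col4a1*. *Col4a5* did not pass the threshold, at 18.7 and 27.7 in DMBA and 30.1 and 24.2 in DMBA+TAM. Of 25 other matrix genes 23 rose and 2 fell (median 3.29). *Lox*, the enzyme that crosslinks collagen and elastin, rose from 11.5 and 13.3 to 1289 and 1143, a 98.2-fold change. Fibronectin, encoded by *Fn1*, rose from 584 and 559.6 to 6964 and 7357, and *Tnc*, tenascin C, from 254 and 170.4 to 2067 and 2087. Among the falls was *Lama5*, a laminin chain of epithelial basement membranes, with 53.2 and 33.1 in DMBA and 23.8 and 27.3 in DMBA+TAM, a call that was lost without DMBA replicate 1 (-0.37, adjusted p = 0.252), without DMBA+TAM replicate 1 (-0.67, adjusted p = 0.162) and without DMBA+TAM replicate 2 (-0.87, adjusted p = 0.0942).

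Matrix-degrading enzymes and their inhibitors rose side by side. Of 21 genes 19 rose and 1 fell, and the median log2 ratio was 3.68. Because several of these genes are known to respond to AP-1, the dimer of Fos and Jun, the 250 bases before the RefSeq start of each gene were searched for its recognition letters TGAGTCA on either strand (TGACTCA is the reverse complement). The letters stood in 3 of the 13 promoters of this list that the table holds, those of *Mmp3*, *Mmp10* and *Mmp13*, in 5 of 19 of the inflammatory mediators (*Il1a*, *Il6*, *Il11*, *Il1rn* and *Lif*) and in 0 of 12 of the epithelial list. Over all 27025 genes with a RefSeq start they stood in 5.16%. These matches are descriptions of the sequence and do not show that a factor binds there. Shown are the 150 bases before the start of the 3 protease genes and of *Il11*, from RefSeq on GRCm38.p6, 5′ to 3′ on the strand of the gene, with the matched letters in capitals. *Mmp3* lies at chr9:7445672-7445821, *Mmp10* at chr9:7502192-7502341 and *Mmp13* at chr9:7272364-7272513, all on the plus strand, and *Il11* at chr7:4778142-4778291 on the minus strand, where the other of its 2 starts holds no match.
Mmp3: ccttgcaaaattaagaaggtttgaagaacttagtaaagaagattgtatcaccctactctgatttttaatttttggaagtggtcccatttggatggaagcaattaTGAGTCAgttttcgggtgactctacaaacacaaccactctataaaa
Mmp10: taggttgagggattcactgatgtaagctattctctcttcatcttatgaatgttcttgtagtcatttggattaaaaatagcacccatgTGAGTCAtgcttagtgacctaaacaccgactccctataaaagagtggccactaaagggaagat
Mmp13: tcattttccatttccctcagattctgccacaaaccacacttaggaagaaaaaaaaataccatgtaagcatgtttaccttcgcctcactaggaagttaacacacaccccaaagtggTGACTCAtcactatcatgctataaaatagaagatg
Il11: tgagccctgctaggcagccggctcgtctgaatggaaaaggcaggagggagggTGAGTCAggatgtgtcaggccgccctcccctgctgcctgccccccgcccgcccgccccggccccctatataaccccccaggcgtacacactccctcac

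The match begins 46 bases before the start in *Mmp3*, 63 in *Mmp10*, 35 in *Mmp13* and 98 in *Il11*. *Mmp3*, stromelysin-1, which cleaves many matrix proteins, had 1.07 and 1.68 normalized CPM in DMBA and 184 and 174 in DMBA+TAM, a log2 fold change of 7.03 ± 0.57 (adjusted p = 4.64e-06). *Mmp13*, a collagenase, had 2.32 and 3.03 normalized CPM in DMBA and 64.9 and 41.4 in DMBA+TAM (4.31 ± 0.32, adjusted p = 2.66e-06). *Mmp10*, a stromelysin next to them on the chromosome, had 1.96 and 2.47 normalized CPM in DMBA and 5.81 and 0.881 in DMBA+TAM and did not pass the threshold (0.52 ± 0.68, adjusted p = 0.542). Of the 3 protease genes with the letters 2 thus rose, and most members without them rose as well.

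*Timp1*, an inhibitor of metalloproteinases, had the largest rise of the list, from 2.41 and 2.58 to 442 and 481, a 185-fold change. *Plau*, which activates plasminogen, rose from 13.4 and 14.6 to 113 and 107. *Adam12*, a membrane protease of mesenchymal cells, rose from 2.59 and 2.70 to 175 and 173. The membrane-bound *Mmp14* rose from 51.9 and 54.0 to 782 and 838, while *Mmp15*, its relative in epithelia, fell from a mean of 156 ± 21.1 to one of 14.5 ± 6.30 (SD, n = 2). Both DMBA+TAM libraries lay above both DMBA libraries for each of these genes except *Mmp15*, where they lay below. These genes were picked from the called members. Over the whole list both libraries lay above for 19 of 21 genes and below for 1, where 33.5% and 42.4% of all genes did.

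**Figure D4:**
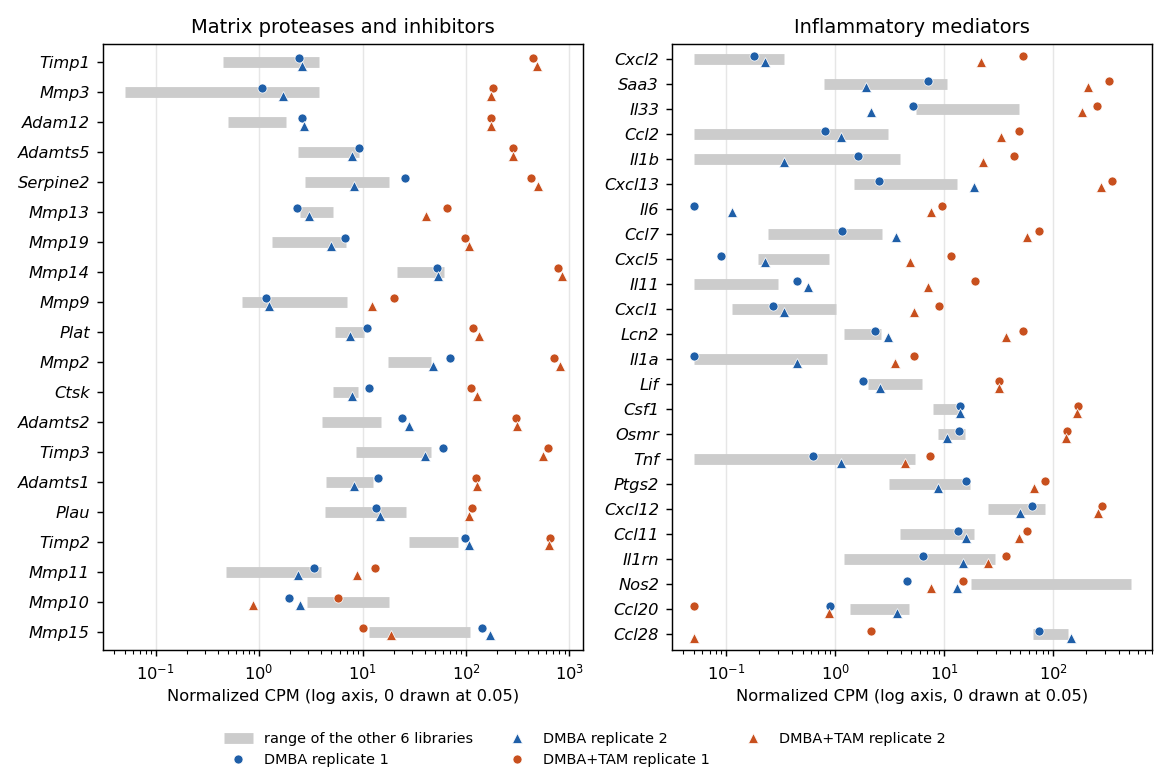
Normalized CPM of 20 of the 21 matrix proteases and inhibitors and of 24 inflammatory mediators (horizontal log axis, a value of 0 drawn at 0.05) in each DMBA and DMBA+TAM library, with grey bars for the range of the other 6 libraries. Both DMBA+TAM points lie above both DMBA points for 18 of the 20 proteases and inhibitors shown and for 21 of the mediators, and *Mmp15*, *Ccl20* and *Ccl28* lie on the other side. Of all genes tested 33.5% lie above and 42.4% below.

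TGF-beta drives fibroblasts to make matrix, and of 20 genes of its pathway 12 rose and 2 fell, with a median log2 ratio of 2.04. Among the ligands *Tgfb1* rose from 13.8 and 15.1 to 139 and 142 and *Inhba*, the activin chain, from 1.16 and 2.92 to 78.1 and 75.3. All 3 receptor genes rose, with 78.0 and 73.0 in DMBA and 546 and 635 in DMBA+TAM for *Tgfbr2*. *Ltbp2*, a latent TGF-beta binding protein of elastic fibers, rose from 2.68 and 2.02 to 607 and 629, a 263-fold change. The signal transducers *Smad2*, *Smad3* and *Smad4* did not pass the threshold, with 74.8 and 89.7 in DMBA and 73.9 and 69.6 in DMBA+TAM for *Smad4*. The inhibitors *Smad6* and *Smad7* were called lower. *Smad6* had 26.2 and 23.9 in DMBA and 17.4 and 9.69 in DMBA+TAM and was not called without DMBA+TAM replicate 2 (-0.53, adjusted p = 0.112). *Smad7* had 64.5 and 54.2 in DMBA and 25.9 and 38.8 in DMBA+TAM and was not called without DMBA+TAM replicate 1 (-0.62, adjusted p = 0.0668). The targets *Ccn2* and *Ccn1* rose, from 31.8 and 38.0 to 544 and 423 for *Ccn2*. Fibroblast markers rose in the same libraries (14 of 15 genes), as did those of macrophages (13 of 13) and endothelium (13 of 14). The part of these cells in the rises of the pathway was not tested.

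Regulators of epithelial-mesenchymal transition (EMT) split by the state they maintain. All 10 mesenchymal members rose and all 6 epithelial members fell (median over both 1.27). *Prrx1*, a homeobox factor of mesenchyme, rose from 1.16 and 1.01 to 362 and 311, a 309.7-fold change, and *Snai1*, which represses E-cadherin, from 1.16 and 0.899 to 27.4 and 36.6. *Zeb1* had one of the smaller rises, from 35.5 and 23.9 to 78.7 and 73.1. *Esrp1*, a splicing factor of epithelia, fell from 210.0 and 233 to 8.97 and 3.97, and *Grhl2*, which maintains epithelial junctions, from 38.5 and 42.1 to no count in either library. *Grhl1* was at most 2.14 normalized CPM and was called with all libraries (adjusted p = 0.0345), not without DMBA replicate 1 (0.1) nor without DMBA+TAM replicate 2 (0.21). Mesenchymal members are also transcribed by fibroblasts, whose markers rose beside them, and the part of the fibroblasts in this rise was not tested.

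Signals that fibroblasts send to the crypt went in both directions. Of 15 niche factors tested 4 rose and 5 fell, close to the shares of all genes, with a median of -0.33. *Wnt2* rose from 0 and 0.674 to 8.97 and 13.7 and *Wnt5a* from 12.4 and 13.4 to 41.7 and 33.0. *Chrdl1*, a BMP antagonist, rose from 14.0 and 25.3 to 47.5 and 58.2. *Rspo3*, an R-spondin, fell from 6.52 and 6.85 to 0.528 and 2.20, and *Foxf1*, a factor of gut mesenchyme, from 20.6 and 17.6 to 1.06 and 0.881. *Grem1*, another BMP antagonist, had 66.9 and 150.2 in DMBA and 39.1 and 26.0 in DMBA+TAM and was called lower, but not without DMBA replicate 2 (-1.07, adjusted p = 0.0982) or without DMBA+TAM replicate 2 (-1.47, adjusted p = 0.115). The falls numbered 3 when either of these libraries was left out and 2 without both.

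Inflammatory mediators rose in most cases. Of 24 genes 21 rose and 1 fell, the median log2 ratio was 2.88, and the sum went from 230.1 and 313 to 2069 and 1608 normalized CPM. Of the cytokines, *Il33*, an alarmin of stroma and endothelium, rose from 5.18 and 2.13 to 255 and 183. *Il11*, whose promoter is shown above, rose from 0.447 and 0.562 to 19.0 and 7.05 (log2 fold change 4.64 ± 0.67, adjusted p = 0.000256). *Il6* had 0 and 0.112 in DMBA and 9.50 and 7.49 in DMBA+TAM, a ratio of 169-fold with an interval of 28.4 to 6861. Of the chemokines, *Cxcl13*, which draws B cells, rose from 2.50 and 18.8 to 345 and 276, and the neutrophil attractant *Cxcl2* from 0.179 and 0.225 to 53.3 and 21.6. *Ccl28*, a chemokine secreted by epithelia, was the member that fell, from 73.6 and 146 to 2.11 and 0. The acute phase gene *Saa3* rose from 7.05 and 1.91 to 328 and 211. *Ccl20* and *Nos2* did not pass the threshold. Markers of macrophages (13 of 13 genes) and of fibroblasts (14 of 15) also rose in these libraries. The part of those cells in the rise of the mediators was not tested.

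Macrophage genes rose without exception. All 13 rose, with a median log2 ratio of 4.25, and their sum went from 491 and 683 to 8854 and 8414, against 419 to 700.0 in the other 6 libraries. *Adgre1*, which encodes the F4/80 antigen, had 11.1 and 9.10 normalized CPM in DMBA and 422 and 439 in DMBA+TAM, and *Csf1r*, the receptor macrophages need to survive, had 26.0 and 30.8 in DMBA and 453 and 389 in DMBA+TAM. *Cd163*, a scavenger receptor of tissue macrophages, rose most, from 3.13 and 3.26 to 346 and 329, a 106-fold change. *Csf1*, the ligand of *Csf1r*, rose from 13.9 and 13.9 to 168 and 165.

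Other immune lists were smaller and mixed. Of 9 mast cell genes 6 rose and 1 fell (median log2 ratio 3.18). *Tpsb2*, a tryptase, went from 0.447 and 0.786 to 21.1 and 44.1. The fall was that of *Mcpt2* (log2 fold change -9.06, adjusted p = 0.015), and its call was lost without either DMBA+TAM library. The mucosal protease *Mcpt1* did not pass the threshold at 28.8 and 7.19 in DMBA and 25.3 and 14.5 in DMBA+TAM. Of 5 neutrophil genes tested 4 rose (median 3.23), among them *S100a9*, from 0.179 and 0.112 to 37.5 and 21.6. *Ly6g* fell in the test, from 6.34 and 62.3 to no count, but its DMBA level rests on replicate 2 and the call was lost without DMBA+TAM replicate 1 (adjusted p = 0.0965) and without DMBA+TAM replicate 2 (adjusted p = 0.115). The plasma cell product *Igha*, the heavy chain of IgA, fell from 1369 and 3949 to 3.70 and 3.52, and *Jchain*, which joins its dimers, from 451 and 1301 to 1.58 and 0.441. T cell genes were at most 10 normalized CPM in all 4 libraries. Of 11 tested 6 fell, or 3 without both replicates 2, and 1 rose (median -0.60). *Cd3g*, a chain of the receptor complex, had 3.75 and 5.28 in DMBA and no count in DMBA+TAM. The rise was that of *Cd4*, also transcribed by macrophages, from 3.13 and 4.94 to 8.97 and 8.81 (adjusted p = 0.0166), and its call was lost without DMBA replicate 1 (0.0779) and without either DMBA+TAM library (0.0631 and 0.067). Of the B and plasma cell list 6 of 11 fell (median -3.10), or 10 without DMBA replicate 1. B cell genes were higher in the other DMBA library, with 0.179 and 24.7 in DMBA for *Ms4a1*, the antigen CD20. *Ighm* did not pass the threshold (log2 fold change 0.24), and without DMBA replicate 2 its log2 fold change was 2.95, a rise.

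Genes of blood vessels and of fat cells rose for the most part, and those of lymphatic vessels were mixed. Of 14 endothelial genes 13 rose, with a median log2 ratio of 2.32 and sums of 241 and 198 in DMBA and 1131 and 1132 in DMBA+TAM. *Pecam1*, the adhesion molecule CD31, had 37.0 and 29.0 normalized CPM in DMBA and 219 and 220.3 in DMBA+TAM. The exception, *Cldn5*, a claudin of tight vessels, had 4.38 and 7.19 in DMBA and 6.86 and 8.81 in DMBA+TAM. Of 7 lymphatic genes 2 rose and 3 fell (median -0.38). *Lyve1*, which macrophages also transcribe, rose from 17.3 and 22.0 to 135 and 96.0, and *Pdpn*, which fibroblasts also transcribe, from 6.97 and 9.66 to 77.6 and 60.8. *Mmrn1*, a secreted protein of vessels, fell from 13.0 and 22.9 to 1.06 and 0.881, and the chemokine *Ccl21a* from 25.9 and 44.3 to 1.58 and 0. *Prox1*, the regulator of lymphatic identity, fell from 9.29 and 6.63 to 3.17 and 3.08 (adjusted p = 0.017), but the call was lost without DMBA replicate 1 (0.0717), without DMBA+TAM replicate 1 (0.068) and without DMBA+TAM replicate 2 (0.0867).

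Of 11 fat cell genes tested 10 rose (median log2 ratio 4.39), and the sum was 582 and 221 normalized CPM in DMBA and 7665 and 4305 in DMBA+TAM. *Adipoq*, the hormone adiponectin, had 18.3 and 7.97 normalized CPM in DMBA and 434 and 211 in DMBA+TAM, and *Fabp4*, a lipid carrier, had 78.5 and 40.8 in DMBA and 2101 and 829 in DMBA+TAM. Replicate 1 had the higher level of both genes in each group. *Pparg*, the regulator of fat cells that colonocytes also transcribe, went the other way, from a mean of 66.3 ± 27.6 to one of 20.8 ± 13.9 (SD, n = 2), but its call was lost without DMBA+TAM replicate 2 (-1.12, adjusted p = 0.0634). *Scd1*, a desaturase of fatty acid synthesis, rose from 83.9 and 58.2 to 6069.9 and 2643. Of the 5 genes of red cells 4 rose (median 4.33), with 21.3 and 16.5 in DMBA and 599.6 and 166 in DMBA+TAM for *Hbb-bs* and 16.6 and 13.8 in DMBA and 459.8 and 153 in DMBA+TAM for *Hba-a1*, and these hemoglobin genes have near copies that can share their reads. *Hba-a2*, such a copy, did not pass the threshold, with 5.18 and 4.04 in DMBA and 6.33 and 2.64 in DMBA+TAM.

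Most genes of smooth muscle fell, and a part of those of nerve. Of 15 smooth muscle and pericyte genes 11 fell and 3 rose (median log2 ratio -1.95). *Myh11*, the smooth muscle myosin, had 4329 and 2360.3 normalized CPM in DMBA and 44.9 and 47.1 in DMBA+TAM, a log2 fold change of -6.18 ± 0.45 (adjusted p = 2.09e-06). *Cnn1*, calponin, had 1091 and 651 in DMBA and 11.6 and 7.05 in DMBA+TAM, and *Actg2*, the enteric actin, 1628 and 876 in DMBA and 42.2 and 34.4 in DMBA+TAM. *Tagln*, which fibroblasts share, fell less, from 1649.5 and 1224 to 602 and 449. *Acta2*, smooth muscle actin, also made by activated fibroblasts, had 1591 and 1025 in DMBA and 733 and 573 in DMBA+TAM and was not called without DMBA replicate 1 (-0.65, adjusted p = 0.0755) or without DMBA+TAM replicate 2 (-0.84, adjusted p = 0.0932). *Des*, desmin, shared with skeletal muscle, had 1786 and 1023 in DMBA and 30.1 and 494 in DMBA+TAM and was not called without DMBA replicate 1 (-1.96, adjusted p = 0.117). The pericyte genes *Cspg4*, *Notch3* and *Mcam* rose, with 6.07 and 3.59 in DMBA and 54.9 and 68.7 in DMBA+TAM for *Notch3*. Pericyte genes did not rise as a set. *Kcnj8* was called lower (adjusted p = 0.018), a call that was lost without DMBA replicate 1 and without DMBA+TAM replicate 2. *Rgs5* did not pass the threshold (log2 fold change -0.57). Smooth muscle is not part of an epithelial organoid, and *Myh11* ranged from 443 to 3859 in the other 6 libraries, above DMBA+TAM. The sum of the list was 2452 and 2718 in DMBA+TAM, inside the range of 1995 to 16609 of those 6, and the same held for the lists of enteric neurons, with 56.5 and 48.9 against 46.9 to 137, and interstitial cells of Cajal, with 41.2 and 63.4 against 30.9 to 294.

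Of 10 regulators of smooth muscle tested 7 fell (median -2.12), among them *Nkx2-3*, a homeobox factor of gut mesenchyme, from 17.0 and 14.7 to 0.528 and 0, and *Foxf2*, from 18.2 and 8.76 to 0.528 and 0.441. Of 14 neuronal genes 9 fell and none rose (median -1.38). *Vip*, a neuropeptide of the gut, had 36.4 and 76.8 in DMBA and no count in DMBA+TAM, at least 39.0-fold lower, and *Prph*, peripherin, had 16.7 and 15.5 in DMBA and 0 and 0.441 in DMBA+TAM. Of 5 genes of the interstitial cells of Cajal, the pacemakers of the gut, 4 fell (median -2.86). The chloride channel *Ano1* fell from 97.4 and 184 to 2.11 and 3.97 and the receptor *Kit* from 75.0 and 66.0 to 10.6 and 13.2. Of 8 glial genes tested 3 rose and 3 fell (median -0.29), and *Erbb3*, also an epithelial gene, fell from 247 and 228 to 11.1 and 4.85.

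Homeobox genes of the Hox clusters record position along the body axis. Of 34 Hox genes 28 were tested, 7 rose and 8 fell, close to the shares of all genes, and the median was 0. The list as a whole does not stand apart, no test between clusters was made, and members are given by cluster only for order. The rises were *Hoxb3*, *Hoxb5* and the 5 tested members of the c cluster. The call of *Hoxb3* was lost without DMBA replicate 2 (adjusted p = 0.166) and without DMBA+TAM replicate 2 (0.396), and that of *Hoxb5* without DMBA replicate 2 (0.122) or either DMBA+TAM library (0.183 and 0.077), while those of the c cluster held in each of these runs. *Hoxc6* had 0.268 and 0 normalized CPM in DMBA and 17.9 and 18.9 in DMBA+TAM, a ratio of 124-fold with an interval of 40.8 to 614, *Hoxc4* rose from 0.268 and 0.449 to 20.1 and 14.1, and *Hoxc8* had 0.0893 and 0.112 in DMBA and 27.4 and 7.93 in DMBA+TAM. Each of them had at most 5 counts in either DMBA library. Of the 8 falls 6 were genes of the a cluster. *Hoxa13*, a gene of the hindgut, went from 39.9 and 51.0 to 3.17 and 0.881 (log2 fold change -4.54 ± 0.64, adjusted p = 0.000545), *Hoxa10* from 55.0 and 37.1 to 6.33 and 1.76 and *Hoxa9* from 54.5 and 42.6 to 8.45 and 3.97. The anterior members *Hoxa2* and *Hoxa3* did not pass the threshold. In the b cluster the DMBA libraries themselves differed, with 32.6 and 1.91 for *Hoxb6* and 2.59 and 186 for *Hoxb13*. *Hoxb13* had no count in DMBA+TAM, and its call was lost without DMBA replicate 2 (adjusted p = 0.176), without DMBA+TAM replicate 1 (0.145) and without DMBA+TAM replicate 2 (0.164). Falls in the whole list numbered 5 without DMBA+TAM replicate 1.

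**Figure D5:**
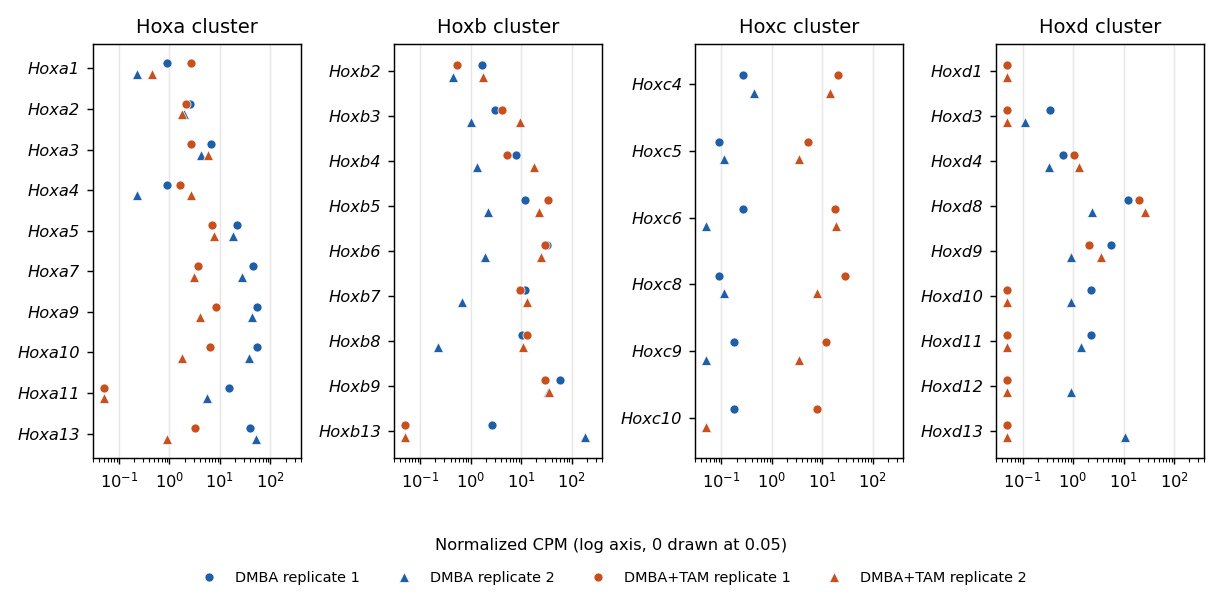
Normalized CPM of the 34 Hox genes (horizontal log axis, a value of 0 drawn at 0.05) in each DMBA and DMBA+TAM library, grouped by cluster a to d. In the c cluster the DMBA+TAM points of the 5 genes tested lie to the right of the DMBA points, and in the a cluster those of *Hoxa7*, *Hoxa9*, *Hoxa10*, *Hoxa11* and *Hoxa13* lie to the left.

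Most genes of energy metabolism fell. All 22 respiratory chain genes fell, with a median log2 ratio of -1.55 and sums of 7613 and 7791 in DMBA and 2451 and 2988 in DMBA+TAM. *Atp5b*, a subunit of ATP synthase, had 1623 and 1550.4 in DMBA and 516 and 608 in DMBA+TAM, and *Cox5a*, of cytochrome oxidase, had the largest fall, from 71.2 and 70.0 to 13.7 and 17.6. The mitochondrially encoded *mt-Co1* fell from 12930.2 and 12734 to 5734 and 5975. *Ndufa4* was called lower with 146 and 149 in DMBA and 67.0 and 112 in DMBA+TAM, but not without DMBA+TAM replicate 1 (-0.40, adjusted p = 0.0725). Of 20 glycolysis and hypoxia genes 11 fell and 2 rose (median -0.64). The hexokinases *Hk1* and *Hk2* fell, from 212 and 212 to 68.1 and 63.4 for *Hk1*, while *Bnip3*, a mitophagy receptor induced by hypoxia, rose from 16.5 and 19.8 to 175 and 96.0. *Vegfa*, the vascular growth factor, rose from 50.5 and 46.6 to 139.9 and 88.1. *Car9*, also known as a hypoxia target, fell from 29.0 and 15.6 to 3.17 and 3.97. Each of the 15 epithelial and 15 colonocyte markers fell in the same libraries, while most fibroblast markers and all macrophage markers rose. The part of these cells in the levels of the energy genes was not tested.

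Of 20 lipid genes 14 fell and 4 rose (median log2 ratio -1.23). In cholesterol synthesis *Hmgcs1* fell from 303 and 518 to 82.9 and 66.1 and *Sqle* from 118 and 148 to 18.5 and 7.05. The fatty acid receptor *Cd36* rose from 39.7 and 15.5 to 547 and 334 beside the fat cell markers.

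Enzymes and transporters that handle foreign compounds bear on DMBA, which both arms received. Of 23 of them 16 fell and 3 rose (median log2 ratio -2.66). All 15 epithelial and all 15 colonocyte markers fell in the same libraries, and the part of those cells in this fall was not tested. *Ugt2b34*, a glucuronyl transferase, had 382 and 409 in DMBA and 1.06 and 0 in DMBA+TAM, and the efflux pump *Abcb1a* fell from 381 and 263 to 12.7 and 4.41. *Mgst1*, a microsomal glutathione transferase, rose from 64.7 and 42.2 to 177 and 148. The aryl hydrocarbon receptor senses DMBA and induces enzymes that oxidise it. Of 11 genes of the receptor and its targets tested 3 rose and 2 fell (median log2 ratio 0). Beside the 25.2% and 29.9% of all genes this list does not stand apart, and its members are given singly. *Cyp1b1* (ENSMUSG00000024087, chr17:79706953-79715041), the enzyme that turns DMBA into its reactive form, had 0.536 and 0.337 normalized CPM in DMBA and 113 and 217 in DMBA+TAM, a 378-fold change (log2 fold change 8.48 ± 0.43, adjusted p = 1.96e-07). The other 6 libraries ranged from 0.884 to 13.6. Fibroblast, macrophage and endothelial markers, of which 14 of 15, 13 of 13 and 13 of 14 were higher, rose in the same libraries, and the part of these cells in the level of *Cyp1b1* was not tested. The receptor *Ahr* rose from 19.2 and 25.7 to 40.1 and 48.9 and its partner *Arnt* from 41.2 and 41.6 to 67.0 and 67.0. Of the other targets, *Cyp1a1* was at or under 4 counts in each library, and *Tiparp* and the repressor *Ahrr* did not pass the threshold, with 24.5 and 26.6 in DMBA and 33.8 and 31.3 in DMBA+TAM for *Tiparp*. *Nqo1*, a quinone reductase, fell from 32.1 and 16.8 to 5.81 and 3.97.

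Most proliferation genes did not pass the threshold. Of 20 S phase genes 3 rose and 4 fell, or 2 fell without DMBA replicate 1 or without DMBA+TAM replicate 1, with sums of 428 and 479 in DMBA and 436 and 485 in DMBA+TAM and a median log2 ratio of 0.12. *Rrm1*, a subunit of ribonucleotide reductase, rose from 32.5 and 40.2 to 72.3 and 73.6, and the helicase subunits *Mcm3* and *Mcm6* rose by less than 1 on the log2 scale. Of 20 genes of the G2 and M phases 1 rose and 4 fell, with a median of -0.22, or 7 fell without DMBA+TAM replicate 2 and 1 without DMBA+TAM replicate 1. *Plk1*, a mitotic kinase, had 54.1 and 58.1 in DMBA and 4.75 and 8.37 in DMBA+TAM and a log2 fold change of -3.07. *Mki67*, the antigen Ki-67, had 113 and 153 in DMBA and 73.9 and 103 in DMBA+TAM and was called lower (adjusted p = 0.0213), but not without DMBA replicate 2 (-0.37, adjusted p = 0.11) or without DMBA+TAM replicate 1 (-0.38, adjusted p = 0.145).

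Targets of p53 were mixed, with 7 of 16 higher and 3 lower (median log2 ratio 0.41), where 25.2% and 29.9% of all genes were. With a minimum change of 1 on the log2 scale 3 were higher and 2 lower. The call of *Fas* as higher was lost in a fit of the 4 libraries alone (log2 fold change 0.80). *Cdkn1a*, the cell cycle inhibitor p21, which epithelial differentiation also induces, fell from 224 and 223 to 66.5 and 72.3. *Phlda3*, *Eda2r* and *Sesn1* rose, from 10.8 and 7.86 to 67.6 and 67.8 for *Phlda3*, an inhibitor of AKT, and from 2.23 and 2.70 to 17.9 and 31.3 for *Eda2r*, a death receptor. *Bax* rose from 35.9 and 35.0 to 61.2 and 52.9, and *Mdm2* had 49.4 and 45.4 in DMBA and 56.5 and 53.3 in DMBA+TAM.

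Most subunits and partners of PP2A did not pass the threshold. Of 23 genes 2 rose and 4 fell, and none of these changed by 1 or more on the log2 scale, with a median of -0.27 over the list. *Ppp2r1b*, the second scaffold gene, rose from 33.0 and 34.3 to 62.8 and 50.7 (0.75 ± 0.18, adjusted p = 0.00519). The catalytic subunit *Ppp2ca* fell from 236 and 236 to 149 and 145 (-0.69 ± 0.11, adjusted p = 0.000547). Of the regulatory subunits *Ppp2r5a* and *Ppp2r5d* fell, from 154 and 159.9 to 115 and 91.2 for *Ppp2r5a*, and *Ppp2r2a* had 44.9 and 41.0 in DMBA and 43.3 and 37.9 in DMBA+TAM.

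The pathways that PP2A restrains were read at the level of RNA only. Of 24 genes that report ERK activity 9 rose and 5 fell (median log2 ratio 0.34), where 25.2% of all genes rose and 29.9% fell. *Egr2* rose from 0.357 and 1.01 to 31.1 and 23.4, *Spred1*, an inhibitor of the pathway, from 44.3 and 41.4 to 165 and 153 and *Etv4*, a factor it induces, from 8.31 and 15.6 to 37.0 and 26.9. *Fos* fell from 126 and 135 to 55.4 and 35.7, and *Jun* had 96.4 and 88.5 in DMBA and 90.8 and 92.1 in DMBA+TAM. Of 28 genes of PI3K and insulin signalling 9 rose and 5 fell (median 0.01). By its median the list does not stand apart from all genes, of which 25.2% rose and 29.9% fell. With a minimum change of 1 on the log2 scale 4 rose and 1 fell, the latter *Foxo3* (log2 fold change -1.32). The calls of *Pik3cb* and *Akt1* as higher were lost in a fit of the 4 libraries alone (0.46 and 0.31). The growth factor *Igf1*, made by fibroblasts and macrophages, rose from 33.4 and 29.1 to 231 and 282. The kinase subunit *Pik3cd* and the lipid phosphatase *Inpp5d*, both known from blood cells, rose as well, the latter from 7.68 and 13.1 to 99.8 and 98.2. *Gsk3b*, a kinase that AKT inhibits, had 98.4 and 100.4 in DMBA and 93.4 and 102 in DMBA+TAM and did not pass the threshold. Markers of fibroblasts and macrophages rose in the same libraries, while those of T cells and of B and plasma cells fell or did not pass the threshold in most cases, and the part of any of these cells in the values was not tested.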

How the data were processed

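RNA-seq libraries of 50-day intestinal organoid cultures were grouped by the treatment in their descriptions. The library titles are NL for DMBA and Lgr5 for DMBA+TAM. Those of the other 6 libraries are NS for saline control and DSS_S and DSS_L for the short and long tamoxifen sets. The titles NL, Lgr5, DSS_S and DSS_L do not name these treatments, so the groups rest on the descriptions and the protocol label. Per the study's methods TopHat was the aligner and HTSeq the counter, and the authors deposited raw counts per gene. The authors also deposited FPKM values, computed from the counts and gene length, which were used here only to rank genes by level. Adjusted p-values and fold changes of the authors' own comparisons in the same table were not used. Of 47074 lines 5 held no gene ID and were left out. Of the other 47069 genes 98.77% matched a symbol in GENCODE M21.

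Counts of all 10 libraries were fitted together in edgeR 4.0.16 (R 4.3.3) with a mean per group, filterByExpr, TMM scaling and the quasi-likelihood test, and p-values were adjusted by Benjamini-Hochberg over the 16179 genes tested (threshold 0.05). All adjusted p-values in the text come from this test unless DESeq2 1.42.0 is named. Levels were counts divided by the TMM-scaled library size. On simulated counts with 200 genes changed 4-fold the test recovered 90% of them, with 4.26% false calls. In the data 8917 of the 16179 genes were called, and recovery and false calls with so many genes changed were not tested. Read strand was not stated for the counting, so overlapping genes cannot be separated.

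The gene lists and the comparison were chosen with earlier results of these data known. Named genes were the 12 largest rises and falls without overlap of the groups and with at least 50 normalized CPM in the higher group, ranked by the ratio of group means with the lower mean set to at least 3 counts per library, the 10 highest by FPKM in each group, the 6 with the largest ratio within each group, and up to 6 genes of a list. Alternatives were library-size scaling, no filter, a fit of the 4 libraries alone, a replicate block, DESeq2, counts thinned to the smallest library, a minimum change of 1 on the log2 scale and leaving out each library. After seeing the data, leaving out both replicates 2 was added. Promoter sequences came from RefSeq on GRCm38.p6. Python 3.11.15 with pandas 2.3.3 and matplotlib 3.10.9 was used. Some genes of the lists are counted but not reported here by name.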

Additional observations from a re-analysis of the deposited data

How the results depend on the processing

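The number of genes past the threshold was 8917 as reported, 8658 with library-size scaling, 9211 with no filter on low counts, 7189 in a fit of the 4 libraries alone, 6926 after thinning to the smallest library, 8199 with DESeq2 and 6227 with a minimum change of 1 on the log2 scale. It ranged from 7317 to 8394 when each library was left out in turn, with 3341 to 3772 rises and 3976 to 4663 falls. No called gene turned to a call in the other direction in these runs except 4 without DMBA+TAM replicate 2, and 7 did so without both replicates 2, where 7131 genes were called. Where a group is left with 1 library, that library is assumed to vary like the other groups. Replicate numbers were shared by the groups only as a number, with a correlation of -0.024 between the deviations of DMBA and DMBA+TAM, and a fit with the replicate block called 8732 genes, 8615 of them in the same direction.

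Counts in lists of epithelium, colonocytes, fibroblasts, endothelium, macrophages and collagens were the same in each alternative run. Genes of lists whose fold change turned were found in these runs, and the cause was not tested. Without DMBA+TAM replicate 2 the log2 fold change was -3.69 for *Acta1*, -3.55 for *Ckm*, -7.48 for *Myh2* and -1.79 for *Mylpf*, the lowest with a library left out (the highest were 8.21, 6.78, 6.11 and 7.78), and without both replicates 2 it was -3.87, -4.27, -6.54 and -1.67. These fitted values rest on few counts in a group, depend on the prior count and are no bounds. Also without both replicates 2 it was 6.19 for *Defa24*, -3.24 for *Tnfrsf19*, -1.39 for *Ppp2r3a* and -1.94 for *Pdk4*. Without DMBA replicate 1 it was 1.70 for *Reg3g*, 0.56 for *Etv5* and 0.76 for *Cd74*, against -1.65, -0.68 and -0.56 without DMBA replicate 2. Rises of skeletal muscle genes numbered 10 as reported, 5 with the 4 libraries alone, 3 after thinning and 0 without DMBA+TAM replicate 2. Falls of G2 and M phase genes were 2 with library-size scaling, and those of T cell genes were 3 without both replicates 2 in place of 6. The low depth of DMBA+TAM limits what can be said of genes near 1 normalized CPM.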

Other observations

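Receptors by which cells hold on to the matrix changed by member. Of 20 integrins and matrix receptors 7 rose and 8 fell (median log2 ratio -0.08). *Itgb4*, which anchors epithelial cells to laminin in hemidesmosomes, fell from 149 and 149.7 to 7.92 and 14.1 normalized CPM (log2 fold change -3.74 ± 0.23, adjusted p = 7.85e-07), and *Itga3*, another laminin receptor chain, from 138 and 118 to 6.33 and 10.1. *Itgb6*, an integrin chain of epithelia, fell from 41.9 and 52.0 to 0 and 2.20. *Itga11*, a collagen receptor of fibroblasts, rose from 4.64 and 2.70 to 64.4 and 65.6 (4.12 ± 0.30, adjusted p = 1.91e-06), and *Itgb5*, a vitronectin receptor chain, from 75.7 and 71.3 to 369 and 408. The shared chain *Itgb1* rose from 608 and 512 to 1239 and 1173. The groups did not overlap for any of these 6 genes, which were picked from the called members. Over the whole list both DMBA+TAM libraries lay above both DMBA libraries for 7 of 20 genes and below them for 8. This is near the 33.5% and 42.4% of all genes, so by this measure the list does not stand apart. The tetraspanin *Cd151* had 132 and 139 in DMBA and 134 and 118 in DMBA+TAM and did not pass the threshold.

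Genes of the interferon response and of MHC class II were split. Of 16 genes 5 rose and 5 fell (median log2 ratio -0.21). This is near the 25.2% and 29.9% of all genes, so the list does not stand apart and its members are given singly. *Irf7*, an amplifier of interferon signals, fell from 455 and 300.1 to 70.7 and 102 normalized CPM, *Isg15*, a modifier related to ubiquitin, from 115 and 104 to 37.0 and 40.1 and *Oas1a*, a sensor of double-stranded RNA, from 134 and 129.6 to 38.5 and 47.6. *Ifit3*, of the same response, rose from 23.6 and 17.0 to 56.5 and 74.9. The class II chain *H2-Eb1* rose from 7.32 and 3.48 to 220.1 and 212 (log2 fold change 5.29 ± 0.39, adjusted p = 2.26e-06) and *H2-Aa* from 7.14 and 2.92 to 101 and 78.0. *Cd74*, the invariant chain that goes with them, had 628 and 255 in DMBA and 465 and 399 in DMBA+TAM, and *Ciita*, the regulator of the class, had 21.9 and 10.3 in DMBA and 12.1 and 15.4 in DMBA+TAM, neither past the threshold, although without DMBA replicate 1 *Cd74* was called higher (0.76, adjusted p = 0.0251). Class II genes are known from macrophages, whose markers rose in the same libraries, and the part of those cells was not tested.

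Of 15 small intestinal genes 5 fell and 3 rose (median 0), near the 29.9% and 25.2% of all genes, so the list does not stand apart. *Slc5a1*, the sodium and glucose carrier, fell from 129 and 160.3 to 0 and 0.441 normalized CPM, while *Sis*, the sucrase of enterocytes, had 2.32 and 0 in DMBA. *Anpep*, an aminopeptidase that fibroblasts also carry, rose from 4.91 and 8.54 to 77.6 and 60.4. Of the mesothelium *Msln*, a surface antigen, fell from 3.04 and 4.83 to no count, and the factor *Wt1* rose from 1.16 and 0.337 to 9.50 and 9.25.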
